A study of Mus musculus with 8 samples.

Results

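A set of 10 genes of growth arrest, p53 signaling and apoptosis was followed in liver that lacked pyruvate carboxylase: Cdkn1a, Ccnd1, Gadd45a, Gadd45b, Gadd45g, Mdm2, Btg1, Btg2, Bax and Bbc3. These 10 of the 35275 genes in the deposited table were chosen by symbol, to ask whether the stress response of these livers reached genes that stop the cell cycle or prepare cell death. They were chosen with earlier results of these data known. Liver RNA was sequenced from 4 mice in which pyruvate carboxylase had been deleted in hepatocytes (Pcx L-/-) and from 4 littermate controls with the floxed gene (Pcx f/f), with 1 library per mouse. All mice were males of the strain labelled C57BL/6, aged 9 weeks, and all had been fasted for 24 h. The Pcx L-/- mice carried Pcx with exon 10 floxed together with Cre driven by the albumin promoter, which is active in hepatocytes, so that the other cells of the liver kept the gene. The Pcx allele originated in a C57BL/6NTac line that was crossed to Flpe deleter mice. The sample labels call the controls WT. As all 8 libraries came from fasted mice, each value below compares genotypes within fasting.

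The p53 protein, encoded by Trp53, is a transcription factor that accumulates after DNA damage and other stress and switches on genes that arrest or kill the cell. Its best known arrest target is Cdkn1a, which encodes the cyclin-dependent kinase inhibitor p21, and its death targets include Bax and Bbc3 (PUMA) of the BCL2 family, while Mdm2 encodes the ubiquitin ligase that degrades p53 in turn. Several of the same genes, the GADD45 family among them, also respond to stress pathways that do not need p53, and hepatocytes of the adult liver rarely divide.

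Of the 10 genes, 5 rose in Pcx L-/- liver (Gadd45a, Cdkn1a, Ccnd1, Bax and Btg2), none fell, and 5 did not pass the test (Mdm2, Gadd45b, Btg1, Bbc3 and Gadd45g). All 10 had passed edgeR's filter on low counts. The 13168 genes past this filter were tested with edgeR (quasi-likelihood F test), p-values were adjusted over all of them by the Benjamini-Hochberg method, and a gene was called at an adjusted p under 0.05. Among all genes tested, 14.1% were called higher in Pcx L-/- liver and 13.5% lower, or 27.6% in either direction (3632 genes, and 2295 or 2109 without Pcx L-/- replicate 2 or 4). Of the 10 genes, 0 were lower also at an unadjusted p under 0.05 in edgeR. At an adjusted p under 0.05, 0 were lower in DESeq2's Wald test and in limma on FPKM, which is scaled by library size alone. The median log2 fold change of the 10 genes was 0.51, beside -0.01 over all genes tested. As the 10 genes and the lists below were chosen with earlier results known, these comparisons with all genes are descriptions and not tests. Gadd45a, Cdkn1a and Ccnd1 rose by more than 2-fold. Of all genes tested, 3.65% were called higher and rose at least 2-fold. All 4 Pcx L-/- mice were above all 4 controls in 5 of the 10 genes, the same 5 that rose, and in 15.1% of all genes tested.

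The libraries held 12016242 to 20023108 reads counted on genes. Pcx itself checked the labels: its normalized count was 14371 to 22066 in the controls and 556 to 758 in Pcx L-/- liver, a log2 fold change of -4.80 ± 0.19 (SE, n = 4 per genotype, adjusted p = 3.66e-07 by edgeR's quasi-likelihood test). Normalized counts are read counts brought to a common library size with edgeR's TMM factors. Summed over 9 hepatocyte markers the normalized count was 1780373 to 2318045 in the controls and 1029623 to 1552118 in Pcx L-/- liver, with 4 of the 9 genes (Apoa1, Apob, Serpina1a and Fgb) past the test and lower. Hepatocyte markers were the most abundant of the marker lists in every library, and their part in the results below was not tested. In whole liver, fewer cells of a type and less RNA per cell cannot be told apart. Of the markers of other cells that passed the filter, 1 of 11 macrophage genes (Cd68) was higher and 1 of 6 cholangiocyte genes lower, and 0 of 9 endothelial, 0 of 9 stellate, 0 of 6 lymphocyte and 0 of 2 neutrophil genes were called, with Ly6g of neutrophils at 0 in all libraries. At an unadjusted p under 0.05 in edgeR, 2 endothelial genes were lower and 1 neutrophil gene higher. Red cell genes had a median log2 fold change of 1.29 with 0 of 5 called, and their summed count was highest in Pcx L-/- replicate 1 (69315) against 4747 to 16715 in the other libraries. That mouse also stood apart from the other Pcx L-/- mice in scaling, with a TMM factor of 0.97 against 1.14 to 1.16, and it was the lowest of its genotype for 7 of the 10 genes. It was also the only Pcx L-/- mouse with a number in the 500s, as control replicates 1 and 2 had, so that in this genotype the mouse and the number series cannot be told apart.

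RefSeq promoter sequence for the build of the files (GRCm38.p6) was available for 9 of the 10 genes, in 12 windows because Cdkn1a and Bbc3 have several start sites, and Ccnd1 has no entry. The 250 bases before each start site were searched on both strands for 4 sequence motifs: the p53 half-site, a pair of p53 core motifs (CATGNNNNNNCATG, which can overlap a half-site), the cAMP response element (TGACGTCA) and an ATF4-C/EBP composite element (TGATGNAA). Windows of 4 genes held a p53 half-site (Cdkn1a, Gadd45a, Bax and Mdm2), as did 7.13% of the 32851 windows of all genes. The upstream start of Cdkn1a held a pair of them, which 0.259% of all windows did, and one of the pair overlapped the paired core motif, found in 0.49% of all windows. The other Cdkn1a start, 2790 bases downstream, held none. The cAMP response element lay before Btg2 (1.55% of all windows) and the ATF4-C/EBP element before Gadd45g (3.45%). The windows of the 4 genes with a half-site and of Btg2, shown because they hold the matches of the genes that rose and of Mdm2, are given 5′ to 3′ on the strand of the gene and ending at the base before the start site, with each motif match in capitals. A match describes the letters of the window and not a bound site, and binding was not measured here.
Cdkn1a (upstream start, chr17:29090729-29090978, + strand): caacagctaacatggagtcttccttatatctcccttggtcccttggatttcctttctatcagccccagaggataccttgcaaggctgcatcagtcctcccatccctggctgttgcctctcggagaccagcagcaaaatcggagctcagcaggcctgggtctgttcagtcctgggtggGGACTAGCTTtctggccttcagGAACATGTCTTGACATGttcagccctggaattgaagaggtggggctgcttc
Gadd45a (chr6:67037408-67037657, - strand): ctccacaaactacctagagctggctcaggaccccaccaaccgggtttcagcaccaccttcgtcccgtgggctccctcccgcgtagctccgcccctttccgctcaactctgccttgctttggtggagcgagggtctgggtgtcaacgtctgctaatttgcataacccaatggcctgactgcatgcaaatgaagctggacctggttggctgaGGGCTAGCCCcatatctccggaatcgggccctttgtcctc
Bax (chr7:45466899-45467148, - strand): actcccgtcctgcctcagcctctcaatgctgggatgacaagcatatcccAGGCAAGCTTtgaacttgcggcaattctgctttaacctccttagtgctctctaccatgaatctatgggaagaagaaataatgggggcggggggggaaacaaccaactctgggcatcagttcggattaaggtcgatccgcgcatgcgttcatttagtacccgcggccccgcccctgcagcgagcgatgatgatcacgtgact
Mdm2 (chr10:117710759-117711008, - strand): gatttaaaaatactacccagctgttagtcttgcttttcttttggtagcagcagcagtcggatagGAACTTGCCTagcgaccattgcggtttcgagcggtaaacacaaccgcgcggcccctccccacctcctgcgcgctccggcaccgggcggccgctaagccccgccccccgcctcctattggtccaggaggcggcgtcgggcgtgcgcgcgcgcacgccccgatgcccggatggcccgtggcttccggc
Btg2 (chr1:134079156-134079405, - strand): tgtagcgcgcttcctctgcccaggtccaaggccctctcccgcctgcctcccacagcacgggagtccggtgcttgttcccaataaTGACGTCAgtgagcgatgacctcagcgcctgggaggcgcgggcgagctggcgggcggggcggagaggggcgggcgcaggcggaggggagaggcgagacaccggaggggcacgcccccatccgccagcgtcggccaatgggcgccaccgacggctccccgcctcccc
In Cdkn1a the capitals mark half-sites 64 to 73 and 42 to 51 bases before the start, the nearer one running into the paired core motif at 35 to 48 bases. The half-site lay 31 to 40 bases before the start in Gadd45a, 192 to 201 in Bax and 177 to 186 in Mdm2. A GENCODE transcript of Gadd45a without a coding sequence starts farther upstream, so that this half-site lies inside the first exon of that transcript. Of the 4 genes with a half-site 3 rose (Cdkn1a, Gadd45a and Bax), beside 14.1% called higher of all genes, and Mdm2 did not pass the test. Of the genes with a window but no half-site, Btg2 rose, and Bbc3, Btg1, Gadd45b and Gadd45g did not pass. Sequence outside these windows was not searched, and a link between motif and change was not tested.

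**Figure D1:**
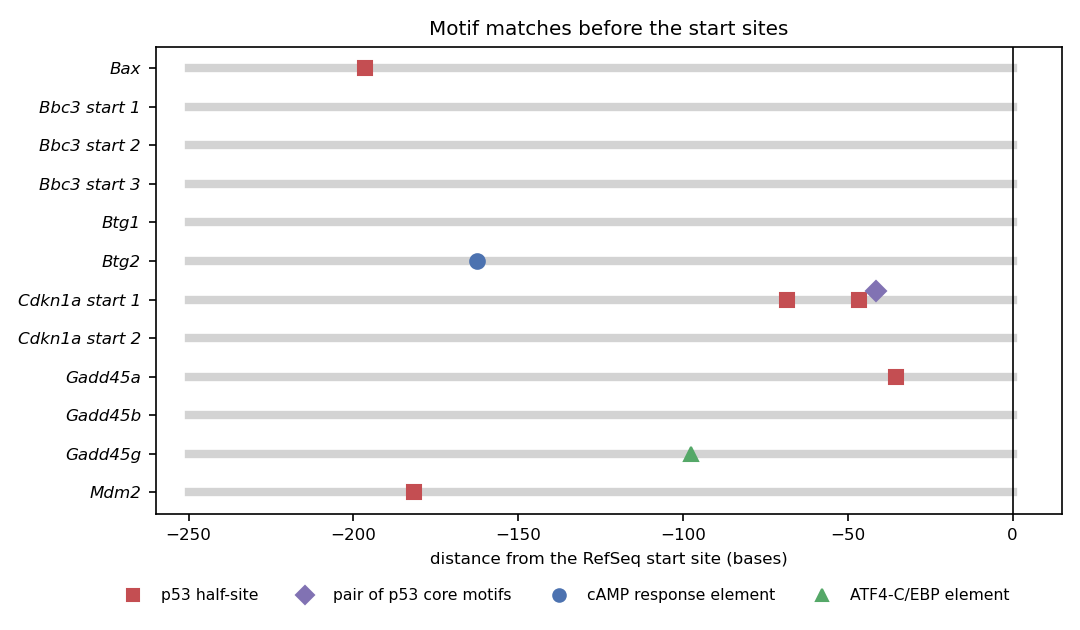
Positions of motif matches in the 250 bases before each RefSeq start site of the 9 genes with an entry (x axis, bases from the start site; 1 line per window). Red squares are p53 half-sites, the purple diamond the paired core motif, the blue circle the cAMP response element and the green triangle the ATF4-C/EBP element; only the upstream start of Cdkn1a holds more than 1 match.

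Cdkn1a rose 4.48-fold in Pcx L-/- liver. The gene lies at chr17:29090976-29100727 on the + strand, where an unclassified model on the other strand overlaps it. Its normalized counts were 158, 125, 341 and 572 in control replicates 1 to 4 and 784, 1664, 1316 and 1490 in Pcx L-/- replicates 1 to 4. Every Pcx L-/- mouse was above every control, although the controls themselves spanned a 4.59-fold range and the 2 highest controls were the 2 with mouse numbers in the 800s. The log2 fold change was 2.16 ± 0.42 (SE, n = 4 per genotype, adjusted p = 0.00437 by edgeR's quasi-likelihood test). With only the mice numbered in the 800s (2 controls and 3 Pcx L-/-, a choice made after seeing the data) it was 1.72. FPKM divides reads by gene length and library size and so allows levels of different genes to be compared. On this measure Cdkn1a went from 8.12 ± 5.12 (SD, n = 4), rank 4 of the 10 genes by mean, to 45.6 ± 15.7, the highest mean of the 10. FPKM carries no TMM factors, so this change is not on the scale of the fold change above. In Pcx L-/- replicate 1, Gadd45g (38.7 FPKM) lay above Cdkn1a (23.4).

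Ccnd1, which encodes cyclin D1, the cyclin that activates CDK4 and CDK6 for passage through G1, rose 2.90-fold. Its normalized counts were 176, 140, 213 and 282 in the controls and 416, 665, 524 and 724 in Pcx L-/- liver. The genotypes did not overlap, and the lowest Pcx L-/- value was again that of replicate 1. The log2 fold change was 1.54 ± 0.22 (SE, n = 4 per genotype, adjusted p = 0.0012 by edgeR's quasi-likelihood test). A gene for a cyclin-dependent kinase inhibitor and a gene for a G1 cyclin were thus both higher. Their ratio of reads, Ccnd1 to Cdkn1a, differed by -0.81 on the log2 scale between genotypes, which did not pass a two-sided exact permutation test (p = 0.0571, n = 4 per genotype). The Ccnd1 gene model (chr7:144929931-144939925, - strand) overlaps LTO1 on the other strand, which had 650 reads in the 4 controls and 991 in the 4 Pcx L-/- libraries. The sources used here do not say whether strand was used in counting, so reads of overlapping genes cannot be told apart.

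Gadd45a, the growth arrest and DNA damage gene whose protein binds PCNA, p21 and the stress kinase MEKK4, had the largest fold change of the 10 genes. Its normalized counts were 5.46, 34.7, 14.0 and 5.09 in the controls and 159, 210, 142 and 441 in Pcx L-/- liver. The gene was close to silent in control liver, with 54 reads over the 4 libraries, of which 32 came from control replicate 2, and all Pcx L-/- mice lay above that control. The log2 fold change was 3.95 ± 0.54 (SE, n = 4 per genotype, adjusted p = 0.000971 by edgeR's quasi-likelihood test), and without control replicate 2 it was 4.80. The gene (chr6:67035096-67037457, - strand) overlaps E230016M11Rik on the + strand, which had 119 reads in the controls and 166 in Pcx L-/- liver.

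**Figure D2:**
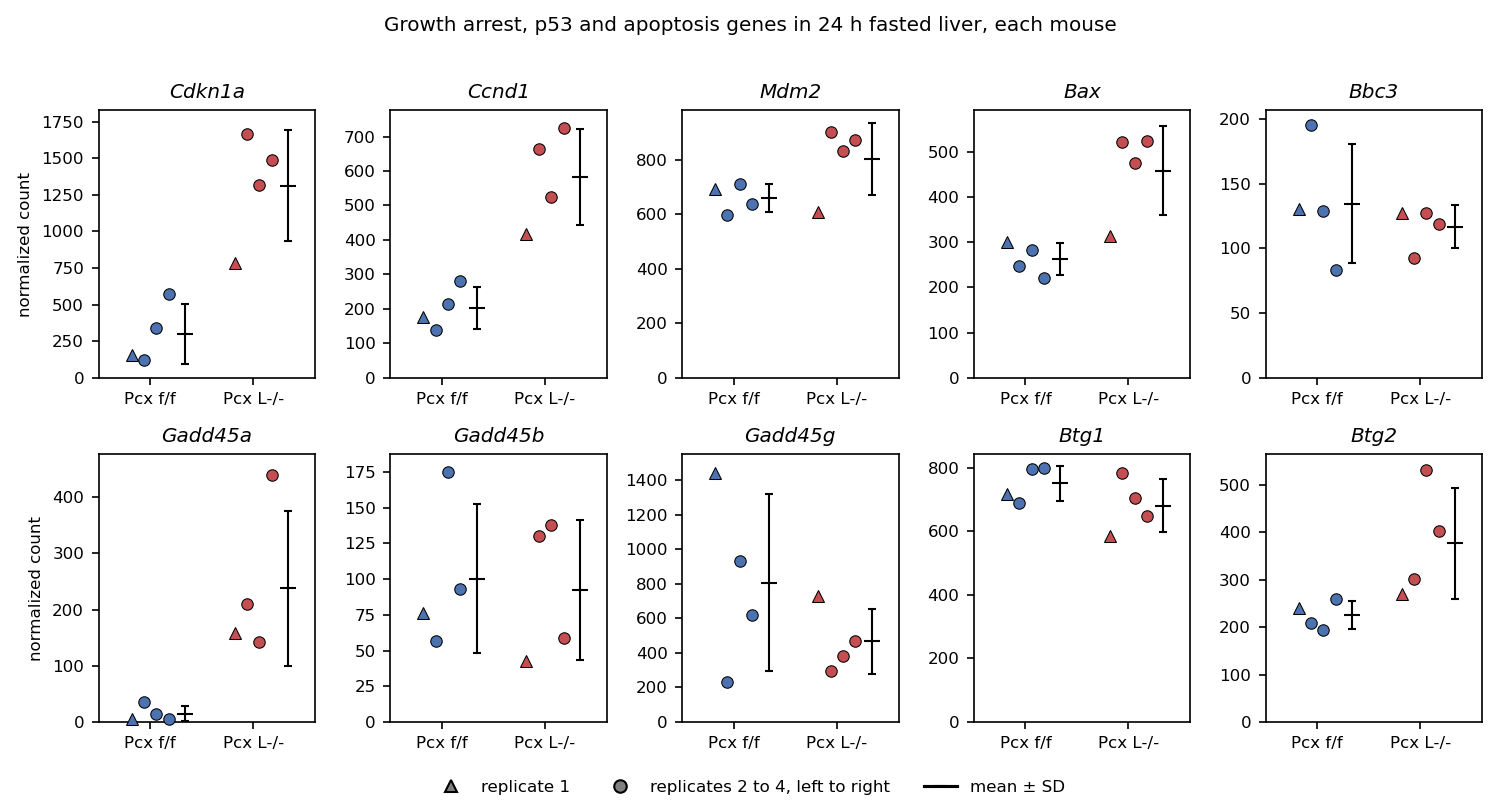
Normalized counts (y axis, linear from 0, separate for each gene) of the 10 genes in the 4 Pcx f/f and 4 Pcx L-/- mice, with 1 symbol per mouse and the mean ± SD beside them. For Cdkn1a, Ccnd1, Gadd45a, Bax and Btg2 all Pcx L-/- points lie above all control points, and the triangle of Pcx L-/- replicate 1 is the lowest of its group in 7 panels.

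Neither of the other GADD45 genes passed the test. Gadd45b, an immediate early member induced by cytokines and NF-kB, ranged from 56.3 to 175 normalized counts in the controls and from 42.5 to 138 in Pcx L-/- liver, with a log2 fold change of -0.11 ± 0.42 (SE). Gadd45g was 1442, 229, 930 and 618 in the controls and 726, 292, 379 and 470 in Pcx L-/- liver. The control range alone was 6.31-fold and enclosed every Pcx L-/- value, and the log2 fold change was -0.79 ± 0.44 (SE, adjusted p = 0.212 by edgeR's quasi-likelihood test). This depended on 1 mouse: without control replicate 2 the log2 fold change was -1.10 with an adjusted p of 0.0328, and among the mice numbered in the 800s it was -1.03 with 0.00515 (edgeR, chosen after seeing the data). The 95% interval of all 8 mice, -1.77 to 0.18, included a 2-fold fall as well as no difference.

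Within the family the composition differed while the summed levels of the genotypes overlapped. In FPKM, Gadd45a made up 0.316% to 9.90% of the summed GADD45 level in the controls and 15.4% to 42.6% in Pcx L-/- liver, while the sum was 45.1 ± 26.9 and 45.4 ± 8.76 (SD, n = 4 each). The sums carry no TMM factors (0.83 to 0.94 in controls, 0.97 to 1.16 in Pcx L-/- liver), so they compare the genotypes by library size alone. Shares within a library do not depend on that scale. Gadd45g had the highest mean of the 10 genes in control liver, at 40.3 ± 26.6 FPKM, although Bax was above it in control replicate 2. Within the family Gadd45g remained the largest in all 8 mice, with 49.8% of the sum at the least. Read ratios within a library, which do not depend on the scaling between libraries, were compared for 7 pairs of genes chosen after their values were seen. Gadd45a to Gadd45b differed by 4.47 and Gadd45a to Gadd45g by 4.89 on the log2 scale, each with the smallest p the two-sided exact permutation test can give (p = 0.0286, adjusted 0.04 over 7 pairs, n = 4 per genotype). Both ratios were higher in every Pcx L-/- mouse than in any control. Gadd45a itself did not overlap between genotypes, and the pairs were chosen with their values known, so these p-values are no further evidence.

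The composition of the D cyclins and of the CDK inhibitors differed too. Ccnd3, the D cyclin with most of the summed FPKM in control liver, fell by 0.84 on the log2 scale (SE 0.17, n = 4 per genotype, adjusted p = 0.00501 by edgeR's quasi-likelihood test), from 593 to 708 normalized counts in the controls to 295 to 523 in Pcx L-/- liver. Ccnd1 went from 21.2 ± 3.97% to 57.1 ± 10.7% (SD, n = 4) of the D cyclin FPKM, and its read ratio to Ccnd3 differed by 2.41 on the log2 scale. Every Pcx L-/- mouse was above all controls in Ccnd1 and below all controls in Ccnd3, so this ratio had to separate the genotypes. Its exact permutation p (0.0286, adjusted 0.04) was fixed by those values and is no further evidence. Cdkn1a went from 36.5 ± 18.2% to 72.1 ± 7.57% of the summed FPKM of 5 CDK inhibitors, whose sum, without TMM factors, was 17.1 to 25.1 in the controls and 38.3 to 76.0 in Pcx L-/- liver. Its relative Cdkn1b, which encodes p27, had a log2 fold change of 0.09 and did not pass the test.

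**Figure D3:**
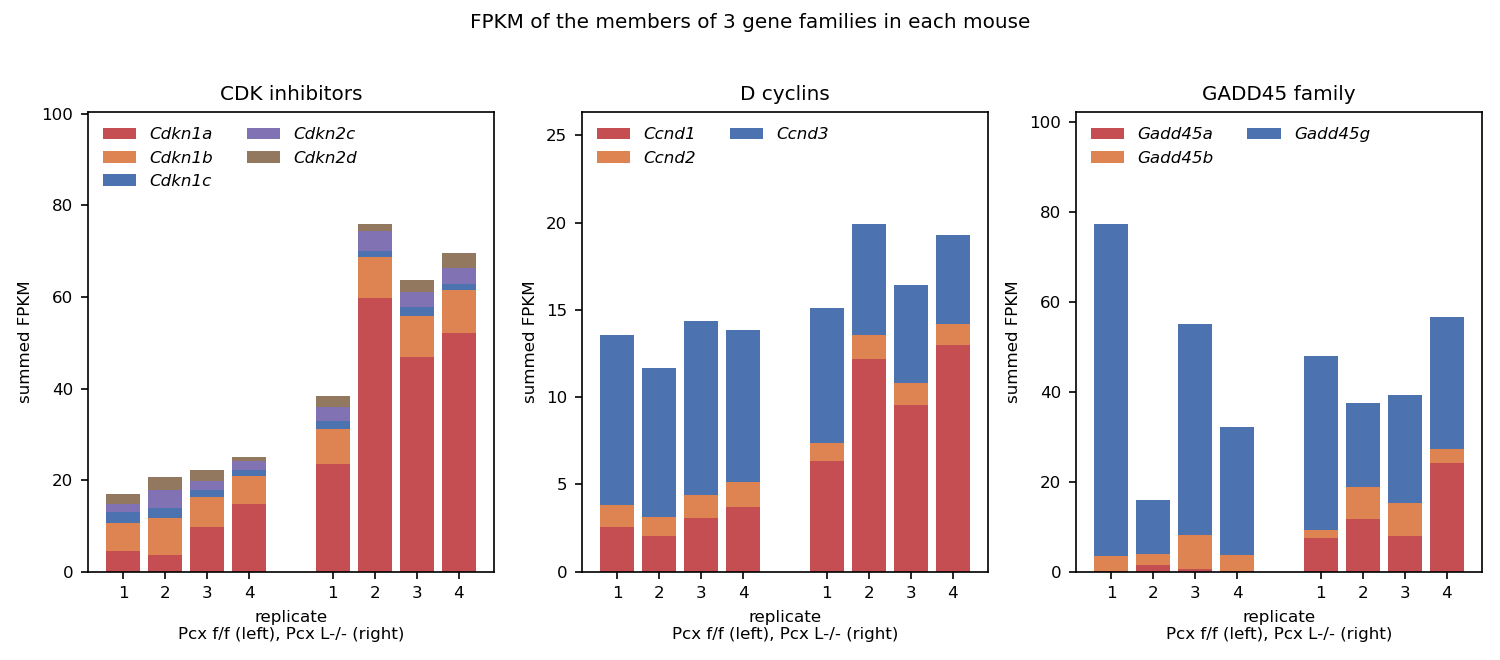
Summed FPKM (y axis, linear from 0) of CDK inhibitors, D cyclins and GADD45 genes in each mouse (x axis, replicate number by genotype), with 1 color per gene. Cdkn1a and Ccnd1 (red) fill more of the bar in every Pcx L-/- mouse than in any control, and Gadd45a (red) is barely visible in the controls while the height of the GADD45 bars overlaps.

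The members that act directly on p53 and on mitochondria differed among themselves. Mdm2 had 693, 597, 712 and 637 normalized counts in the controls and 607, 900.5, 833 and 871 in Pcx L-/- liver. Replicates 2 to 4 of Pcx L-/- were above every control, but replicate 1 lay among the controls, and the log2 fold change was 0.28 ± 0.13 (SE, n = 4 per genotype, adjusted p = 0.137 by edgeR's quasi-likelihood test). Without that mouse it was 0.39 with an adjusted p of 0.0115 (edgeR). The ratio of Cdkn1a to Mdm2 reads was higher by 2.08 on the log2 scale in Pcx L-/- liver (p = 0.0286, adjusted 0.04, exact permutation). This pair was chosen with its values known, so the p-value is no further evidence. By their fitted log2 fold changes, 2.16 for Cdkn1a and 0.28 for Mdm2, these canonical p53 targets did not change to the same extent.

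Bax, whose protein opens pores in the outer mitochondrial membrane, rose 1.74-fold. It had 300, 247, 283 and 221 normalized counts in the controls and 313, 522, 476 and 523 in Pcx L-/- liver. The genotypes did not overlap, but replicate 1 of Pcx L-/- exceeded the highest control by little. The log2 fold change was 0.80 ± 0.17 (SE, n = 4 per genotype, adjusted p = 0.00655 by edgeR's quasi-likelihood test). Bbc3, the BH3-only gene that encodes PUMA, had 130, 195, 129 and 83.2 in the controls and 127, 92.3, 128 and 119 in Pcx L-/- liver. All of its Pcx L-/- values lay inside the control range, and the 95% interval of its log2 fold change, -0.72 to 0.28, left out a rise of the size of that in Bax. The ratio of Bax to Bbc3 reads differed by 0.94 on the log2 scale and missed the threshold (p = 0.0571, exact permutation). The model of Bax (chr7:45461697-45466898, - strand) shares its strand with the overlapping model Gm45808, which was not analysed here.

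Btg1 and Btg2 encode related antiproliferative proteins that bind the CCR4-NOT deadenylase. Btg2, the p53-responsive and immediate early member, had 241, 209, 195 and 260 normalized counts in the controls and 271, 302, 531 and 403 in Pcx L-/- liver. The genotypes did not overlap, with the lowest Pcx L-/- mouse just above the highest control, and the log2 fold change was 0.74 ± 0.20 (SE, n = 4 per genotype, adjusted p = 0.0194 by edgeR's quasi-likelihood test). Its call was lost when control replicate 3, Pcx L-/- replicate 3 or Pcx L-/- replicate 4 was left out, with log2 fold changes of 0.67, 0.53 and 0.71 and adjusted p of 0.0605, 0.053 and 0.0572 (edgeR). Btg1 ranged from 689 to 800 in the controls and from 586 to 782 in Pcx L-/- liver, and its 95% interval of -0.39 to 0.11 was the narrowest of the 10. The ratio of Btg2 to Btg1 reads was higher by 0.84 on the log2 scale (p = 0.0286, adjusted 0.04, exact permutation). This pair too was chosen with its values known, so the p-value is no further evidence.

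**Figure D4:**
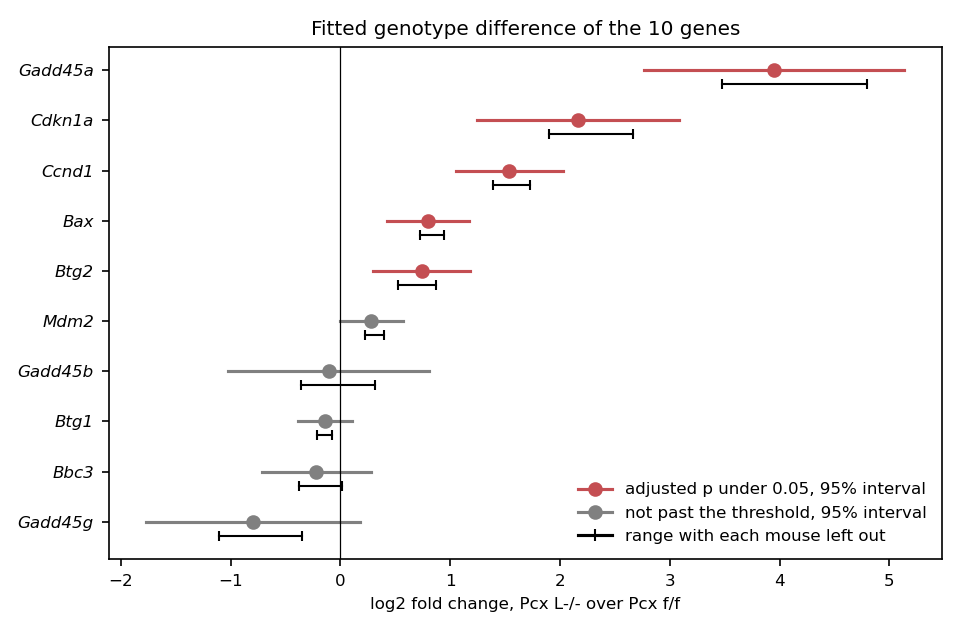
Log2 fold changes of the 10 genes between genotypes (x axis, Pcx L-/- over Pcx f/f) with their 95% intervals, red where the adjusted p was under 0.05, and the range over the 8 fits with 1 mouse left out (black). Gadd45a at 3.95 and Cdkn1a at 2.16 lie farthest right, and the interval of Gadd45g reaches from -1.77 to 0.18.

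Trp53 itself rose 1.47-fold. Its normalized counts were 391, 312, 327 and 283 in the controls and 394, 508, 551 and 487 in Pcx L-/- liver, without overlap (log2 fold change 0.56 ± 0.13 SE, n = 4 per genotype, adjusted p = 0.0116 by edgeR's quasi-likelihood test). Of 10 genes for p53 and its regulators that were tested, 2 were higher, a share near the 14.1% of all genes, and 0 lower, the other being Atr, the kinase activated by stalled replication forks (0.64, adjusted p = 0.00424). At an unadjusted p under 0.05 in edgeR 1 was lower, and 0 at an adjusted p under 0.05 by DESeq2 or limma. Their median log2 fold change was 0.16. Activity and amount of the p53 protein were not measured in this table.

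Beyond the 6 members that are themselves p53 targets, 28 further p53 targets were tested, of which 9 were higher (32.1%) and 3 lower (10.7%), beside 14.1% and 13.5% of all genes. Their median log2 fold change was 0.32. The largest rises were in Eda2r, a TNF receptor family gene, by 3.12 ± 0.52 (SE) on the log2 scale, in the death receptor gene Tnfrsf10b by 2.16 ± 0.38 and in the exonuclease gene Aen by 1.48 ± 0.21, with adjusted p of 0.00219, 0.003 and 0.00115 by edgeR's quasi-likelihood test. Eda2r had 6.50 to 10.9 normalized counts in the controls and 17.9, 112, 101 and 95.2 in Pcx L-/- liver. All Pcx L-/- mice exceeded the controls, and replicate 1 was the lowest of them. Tnfrsf10b had only 25 reads over the 4 controls, with normalized counts of 3.25 to 10.0 there and 17.9 to 40.4 in Pcx L-/- liver. As the lists share genes, its rise is counted again below among the death receptor genes and the stress genes. The called falls were in Steap3 (-1.02), Ei24 (-0.67) and Sesn1 (-0.40), and that of Sesn1 was lost when any 1 of 6 mice was left out.

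Among 23 other genes of G1 control, 3 were higher and 3 lower (6 called, against 3, 2 and 2 without control replicate 3, Pcx L-/- replicate 3 or Pcx L-/- replicate 4), with a median log2 fold change of 0.00. These shares, 3 of 23 in each direction, were near the 14.1% higher and 13.5% lower of all genes. Higher were Btg3, an antiproliferative relative of the BTG genes (1.34, adjusted p = 0.00867), Tob1 (0.48, 0.0468) and Cdk4 (0.47, 0.0375). Lower besides Ccnd3 were E2f1, a transcription factor of S phase entry (-1.08, 0.0291), and the pocket protein gene Rbl2 (-0.43, 0.0233). Of 16 S phase and mitosis genes that passed the filter, 4 were higher and 2 lower, or 25.0% and 12.5%. These 6 calls became 2, 2, 2 and 1 when control replicate 3 or Pcx L-/- replicates 2, 3 or 4 were left out. The replication licensing genes Mcm2 (1.27, adjusted p = 0.00844), Mcm4 (0.89, 0.0395) and Mcm7 (0.72, 0.0143) rose, as did Rrm1, whereas the mitotic kinase gene Aurka (adjusted p = 0.0253) and Rrm2 (-0.68, 0.0279) fell, all by edgeR's quasi-likelihood test. Aurka had 39.0 to 61.1 normalized counts in the controls and 16.9 to 39.6 in Pcx L-/- liver. The calls of Tob1, Cdk4, E2f1, Rbl2, Mcm4, Aurka and Rrm2 were each lost in at least 4 of the 8 fits without 1 mouse, and that of Mcm7 without Pcx L-/- replicate 4 (adjusted p = 0.0519, edgeR).

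No other gene of the BCL2 family rose with Bax on this scale. Beside 14.1% higher and 13.5% lower of all genes, 0 of 14 tested genes were higher and 3 lower (21.4%) by edgeR, with a median log2 fold change of -0.09. At an unadjusted p under 0.05 in edgeR 1 was higher, and the adjusted counts were 0 by DESeq2 and 2 by limma on FPKM. The falls were in the BH3-only gene Bmf (-1.37 ± 0.27 SE) and in the mitophagy receptor genes Bnip3 (-1.21 ± 0.27) and Bnip3l (-0.71 ± 0.15), with adjusted p of 0.00483, 0.00814 and 0.00627 by edgeR's quasi-likelihood test. Bnip3 had 5376 to 6496 normalized counts in the controls and 4443, 1841, 1914 and 1861 in Pcx L-/- liver, so that replicate 1 lay nearer to the controls than to its own group. Of 27 caspase, death receptor and necroptosis genes, 5 were higher (Tnfrsf10b, Mlkl, Diablo, Casp6 and Tnfrsf1a) and 3 lower (Cflar and Aifm1 among them). The shares of 18.5% and 11.1% were near the 14.1% and 13.5% of all genes. In this list 8 genes were called in all, which became 5 and 4 when control replicate 1 or 3 was left out and 5 and 4 for Pcx L-/- replicate 2 or 4. Mlkl, the executor of necroptosis, had a log2 fold change of 0.99 (adjusted p = 0.0227), and Diablo, a mitochondrial antagonist of caspase inhibitors, one of 0.77 (0.00136). Cflar, which encodes an inhibitor of death receptor signaling, had one of -0.53 (0.00745). The call of Mlkl was lost when control replicate 2, control replicate 3 or Pcx L-/- replicate 4 was left out (adjusted p from 0.0589 to 0.0799, edgeR), and that of Aifm1 in 5 of the 8 fits without 1 mouse.

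Stress genes tied to arrest or death held 7 higher and 0 lower of 14 tested, beside 14.1% higher and 13.5% lower of all genes. The study singled out several of these stress genes in these same mice, so their direction is not independent evidence. Nupr1, a stress-inducible chromatin protein gene, went from 3.40 to 11.8 normalized counts in the controls to 301 to 1730 in Pcx L-/- liver. Trib3, a pseudokinase gene induced by ATF4 and CHOP, went from 268 to 278 up to 3174 to 6396, and Gdf15, a secreted stress hormone, from 6.79 to 61.3 up to 289 to 923. Their log2 fold changes were 7.19, 4.17 and 3.99, beside 3.95 for Gadd45a, and the genotypes did not overlap. Ddit3, which encodes CHOP and was named after its value was seen, had a log2 fold change of 2.48 (adjusted p = 0.00232, edgeR). The other 7 genes of the list, among them the BH3-only genes Bcl2l11 (-0.30) and Pmaip1 (0.35), did not pass the test. In this list the count of 0 held at an unadjusted p under 0.05 in edgeR. It also held at an adjusted p under 0.05 by DESeq2 and limma. The same was true of the falls among immediate early genes and the rises among MAP kinases described next.

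Btg2 and Gadd45b belong to the immediate early genes, and of 19 others 6 were higher and 0 lower (3 without Pcx L-/- replicate 4), with a median log2 fold change of 0.51. The shares were 31.6% and 0.0%, beside 14.1% higher and 13.5% lower of all genes. Without that mouse the calls over all genes fell too, from 3632 to 2109. Myc rose by 2.73 ± 0.27 on the log2 scale (SE, adjusted p = 0.00021 by edgeR's quasi-likelihood test), from 58.0 to 82.8 normalized counts in the controls to 246 to 585 in Pcx L-/- liver. Egr1 (1.63) and Fos (1.53) also passed, with adjusted p of 0.0476 and 0.0409, but their genotypes overlapped and each call was lost when any 1 of 6 mice was left out. The others were Junb, Ier3 and Ier5. GADD45 proteins act through p38 and JNK, and of 9 kinases of those pathways 0 were higher and 4 lower (2 without Pcx L-/- replicate 4). The 4 were 44.4% of these kinases, beside 13.5% lower of all genes. Map2k6, which activates p38, had a log2 fold change of -1.45, Map3k5 (ASK1) one of -1.19 and Mapk14 (p38 alpha) one of -0.65, with adjusted p of 0.0059, 0.015 and 0.00815 by edgeR's quasi-likelihood test. Mapk8 (JNK1) was lower as well, and the call of Map3k5 was lost without Pcx L-/- replicate 4 (adjusted p = 0.0529, edgeR).

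**Figure D5:**
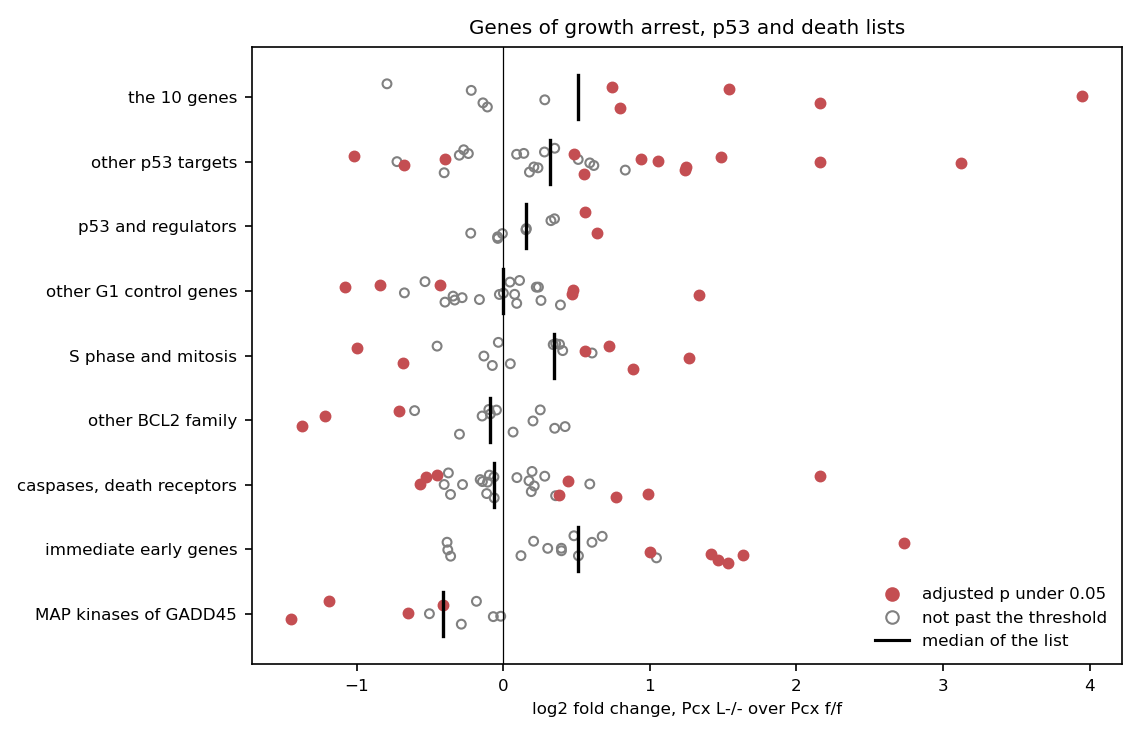
Log2 fold changes (x axis, Pcx L-/- over Pcx f/f) of every tested gene in the lists named in the text (y axis), filled where the adjusted p was under 0.05, with the median of each list as a black bar. The 10 genes reach farthest right at 3.95 and have a median of 0.51; the list of stress genes tied to arrest or death is not drawn.

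All of these directions are relative to the scaling. With library size alone the median of all genes shifted to 0.28 on the log2 scale, and calls went from 1855 higher and 1777 lower to 3915 higher and 870 lower. On that scale 6 of the 10 genes were higher, Mdm2 being added (0.58, adjusted p = 0.0186 by edgeR's quasi-likelihood test), and Gadd45b, Btg1 and Bbc3, which did not pass on either scale, changed sign. G1 control genes then numbered 7 higher and 1 lower, S phase and mitosis genes 8 and 0, BCL2 family genes 2 and 3, and caspase and death receptor genes 8 and 0, whereas all 34 tested p53 targets, members included, went from 13 higher and 3 lower to 19 and 2.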

How the data were processed

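The authors deposited raw read counts per Ensembl gene and FPKM values for 8 liver libraries. The submitters' processing notes name STAR 2.5, HTSeq 0.6.1 and DESeq2 with the mm10 build; the sources used here give neither the annotation release nor the use of strand. Every FPKM value above 0 (142384) equalled the deposited count over 1 length per gene and the library's total. GENCODE M21 gave symbols for 97.8% of identifiers. The deposited counts were tested with edgeR 4.0.16 in R 4.3.3 (TMM factors, filterByExpr, quasi-likelihood test, genotype as the only term), which left 6 residual degrees of freedom, and steps were tested on simulated data. Standard errors were derived from the F statistic. Read ratios and the summed FPKM are descriptions within libraries, and ratios were compared by exact permutation. The 10 genes, the gene lists and the tests were chosen with earlier results of these data known. Named from each other list were the genes past the threshold with the 3 largest changes in each direction. Cdkn1b, Ddit3, Bcl2l11, Pmaip1 and names given without values were added after their values were seen. Results were recomputed with other scalings and filters, DESeq2 1.42.0, limma 3.58.1 on log2(FPKM + 1) or log2(FPKM + 0.1), the mouse number series, a replicate block and each mouse left out. The values of 1 listed gene are not reported here.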

Additional observations from a re-analysis of the deposited data

Results flagged for a closer look

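The 4 mice of each genotype were screened with Dixon's test, gene by gene, for a mouse far from the other 3, over 94 groups, and chance flags about 5% of such groups. The 5 groups found were about as many as that share would give. In 4 of the 5, the mouse was Pcx L-/- replicate 1, the only one of its genotype numbered in the 500s. For Bnip3 its normalized count was 4443 against 1841 to 1914 in the other Pcx L-/- mice, a gap of 0.972 of the group's range. For Mapk14 it was 1768 against 1276 to 1326 (0.898), for Map3k5 912 against 430 to 498 (0.857), and for Mcm2 52.8 against 101 to 110 (0.852). In each of the 4 genes this mouse lay on the side of the controls. The remaining case was Ei24 in control replicate 4, with 6848 against 4332 to 4434 in the other controls (0.959). None of the 10 growth arrest, p53 and apoptosis genes had such a mouse in either genotype.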

How the results depend on the processing

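Of the 10 genes, Gadd45a, Cdkn1a, Ccnd1 and Bax were higher and past the threshold under all 18 alternatives, with log2 fold changes of 2.97 to 4.80, 1.72 to 2.66, 1.38 to 1.85 and 0.71 to 1.10, and Btg2 under 15 of them. Those that changed sign had not passed the test. Gadd45b was 0.21 with library size alone, 0.11, 0.12 and 0.11 by limma on log2(FPKM + 1), log2(FPKM + 0.1) and log2(FPKM + 1) of all genes above 0, and ranged from -0.36 to 0.31 with each mouse left out. Btg1 was 0.16, 0.13, 0.14 and 0.13 on the same 4 scales. Bbc3 was 0.050, 0.092, 0.13 and 0.092, ranged from -0.38 to 0.013 with each mouse left out, and was 0.067 in the 800s mice alone. With library size alone 5 genes of p53 and its regulators, 5 BCL2 family and 13 immediate early genes were called. By limma on log2(FPKM + 1) these were 5, 5 and 11, on log2(FPKM + 0.1) 5, 5 and 11, and over all genes above 0 the first was 4 and MAP kinases 2. In the 800s mice, an alternative chosen after seeing the data, 1 of the 10 genes was lower. With each mouse left out, calls ranged from 2109 to 4602 over all genes, 4 to 6 members higher and 0 to 1 lower, 11 to 22 of the 34 p53 targets with members included (16 with all mice), 2 to 3 p53 regulators, 2 to 6 G1 genes, 1 to 6 S phase and mitosis genes, 3 to 4 BCL2 family, 4 to 11 caspase and death receptor, 6 to 7 stress, 3 to 9 immediate early and 2 to 5 kinase genes. Same-numbered mice showed little shared deviation (correlations of 0.10, -0.13, -0.09 and -0.07), which with 4 mice per genotype does not exclude pairing. A replicate block gave 2975 calls, 5 of the 10 genes higher, and 3 in place of 6 S phase and mitosis genes. The test planned for members below the filter, with its own pseudocounts, had no gene to run on. The depth leaves Gadd45a in the controls with 54 reads, so its fold change is imprecise. The cause of these shifts was not tested.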
